A study of Mus musculus with 14 samples.

Results

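Growth hormone and insulin-like growth factor 1 (IGF1) form an endocrine axis that is centred on the liver. The genes described here are 10 members of that axis: Ghr, Stat5b, Socs2, Cish, Igf1, Igfals, Igfbp1, Igfbp2, Igfbp3 and Igfbp4. They were chosen by name, as the probe sets whose single gene symbol in the array annotation is that of a member. They are 10 of 12393 genes with such a probe set and have 21 probe sets. The brightest probe set of each gene, by mean intensity over all arrays, represents it, and the others serve as a check. All 10 members were bright enough to be tested, among 13576 probe sets of 8453 genes.

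Liver RNA of mice was hybridised to 14 arrays, 2 each for liver at 4, 8, 12, 36, 48 and 72 h after partial hepatectomy (PHx, in which part of the liver is cut away and the rest grows back) and 2 for normal liver. Normal liver is unoperated as far as the labels say, and no sham operation is named. Each RNA extraction pooled the livers of 4 to 6 mice. Strain, sex, age, feeding and time of day of collection are not given in the sources used here, and neither is a genetic change or drug. Whether the arrays of a group hold separate pools is not said either, so the spread behind each p-value is that between arrays and may be technical.

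Growth hormone binds its receptor on hepatocytes, the kinase JAK2 phosphorylates STAT5B, and STAT5B enters the nucleus and activates Igf1, Igfals, Socs2 and Cish. SOCS2 and CISH proteins then dampen the receptor's signal. Most IGF1 in blood comes from the liver and circulates in a complex with IGFBP3 and the acid-labile subunit encoded by Igfals. IGFBP1, which insulin represses in liver, and IGFBP2 bind IGF1 in smaller complexes, and IGFBP4 is mostly known as an inhibitor of IGF action.

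The arrays had been scaled to nearly the same trimmed mean, and their median intensities lay between 127.8 and 233.1. The background of an array, taken as the 95th percentile of its 27 bacterial controls, lay between 43.6 and 138. Array replicate 2 of 8, 12, 36 and 72 h stood apart, with a 5′ to 3′ signal ratio of 0.0909 to 0.137 for the pyruvate carboxylase control, against 0.305 to 0.584 on the other 10 arrays. All 9 hepatocyte markers on the array were above background on every array. By limma, 0 of 9 were called at any time against normal liver, where 2.32% to 12.2% of all probe sets were. At an unadjusted p under 0.05 there were 1 to 4 of 9, and 1873 to 3995 of all 13576 probe sets. The 9 markers summed to 219900 to 221761 at 36 h, 185256 to 288145 at 48 h and 242790 to 259806 at 72 h, against 281168 to 348639 in normal liver. Their median log2 change was -0.58 at 36 h, where all 4 unadjusted hits were lower. Late (36, 48 and 72 h) against early (4, 8 and 12 h), 2 of 9 were called lower. That comparison called 15.8% of all probe sets in either direction. Sums of markers of other cells and tissues also differed with time. The 11 pancreatic acinar markers summed to 37856 to 37873 at 4 h and 244888 to 263300 at 8 h, against 1166 to 2249 in normal liver. At 12 h they summed to 2119 to 4402, and at 36 h to 1206 and 42371 on its arrays. The 14 skeletal muscle markers summed to 18942 to 20863 at 4 h, 11908 to 12962 at 8 h and 2293 to 2869 at 12 h. In normal liver they summed to 574 to 1012. The 11 Kupffer cell markers summed to 8531 to 9523 at 8 h and 5400 to 7848 at 12 h, against 12710 to 14183 in normal liver. Their sums were 11289 to 11295 at 36 h, 11345 to 12422 at 48 h and 12637 to 13017 at 72 h. The 13 endothelial markers summed to 5198 to 5494 at 8 h and 4869 to 5494 at 12 h, against 6551 to 7329 in normal liver. They stayed below it late, with 5544 to 5834 at 36 h, 5456 to 6259 at 48 h and 5633 to 5645 at 72 h. The 9 neutrophil markers summed to 2249 to 2459 at 4 h and 2627 to 2910 at 8 h, against 866 to 1107 in normal liver. They stayed above it, with 2361 to 2445 at 12 h, 1373 to 2681 at 36 h, 1281 to 2040 at 48 h and 1576 to 1730 at 72 h. The part of these transcripts in the results below was not tested, and in bulk liver RNA fewer cells of a type and less RNA per cell cannot be told apart.

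Between 1 and 4 of the 10 members were called lower than normal liver at each time from 8 h on. None was called higher, where 1.6% to 5.97% of all probe sets were called higher from 4 to 36 h. Changes were tested in limma on the scale log2(intensity + 56.6), which understates changes of dim probe sets, and a call is an adjusted p under 0.05. At 4 h, 0 of 10 members were called by limma (1 at an unadjusted p under 0.05), where 2.42% of all probe sets were. At 8 h, 4 members were called and all were lower (Igfals, Stat5b, Igfbp2 and Ghr), against 4.72% of all probe sets called lower and 9.59% called in either direction. At 12 h, 3 members were called lower (Igfals, Ghr and Socs2), where 6.21% of all probe sets were called lower and 12.2% in either direction.

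At 36 h the members called lower were Ghr and Stat5b, 2 of 10, against 1.88% of all probe sets called lower and 4.16% in either direction. At 48 h, 1 member was called lower, Igfbp1, against 0.685% of all probe sets called lower and 2.32% in either direction. At 72 h, 3 were called lower (Socs2, Ghr and Igfals), against 0.869% of all probe sets called lower and 2.49% in either direction. No member was called higher than normal liver at any of the 6 times by limma. Of all probe sets, 1.6% (4 h), 4.87% (8 h), 5.97% (12 h) and 2.28% (36 h) were called higher. A count of 0 of 10 is near these shares. At an unadjusted p under 0.05 Igfbp1 was higher at 4 and 12 h. The moderated F test over the 6 times called 7 of 10 members, where 13.1% of all probe sets were called, and left out Igfbp2, Igfbp4 and Igf1. Its smallest adjusted p was that of Igfbp1 (0.000821), followed by Igfals (0.00102) and Ghr (0.00668).

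The median log2 change of the members was -0.13 at 4 h, and it reached -0.71 by 8 h and -0.86 by 12 h. In the late samples it was -1.01 (36 h), -0.76 (48 h) and -1.15 (72 h). The median of all probe sets tested lay between -0.00 and 0.12 at these times. Both arrays were below both of normal liver for 3 of 10 members at 4 h, where 23.8% of all probe sets were so placed. That count was 8 of 10 at 8, 12, 36 and 48 h, against 25.6%, 22.9%, 20.2% and 16.3% of all probe sets at those times. At 72 h it was 9 of 10, against 17.5%. The 6 comparisons share the 2 arrays of normal liver, so their counts are not independent.

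**Figure D1:**
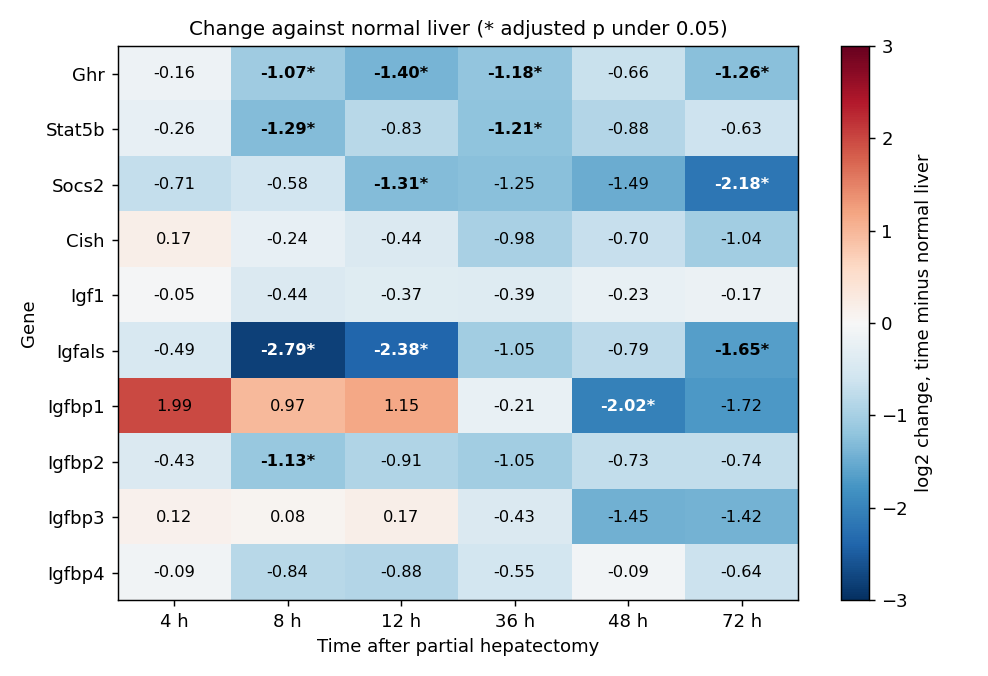
Log2 change of each member against normal liver, with genes in rows and hours after PHx in columns, where blue is lower, red is higher and an asterisk marks an adjusted p under 0.05. The column of 4 h has no call, and the lowest value is that of Igfals at 8 h, -2.79.

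The growth hormone receptor gene, Ghr, was called lower at 4 of the 6 times. Its brightest probe set read 8665 and 9718 in normal liver, 8713 and 7776 at 4 h, 4148 and 4539 at 8 h, 2723 and 4353 at 12 h, 3831 and 4211 at 36 h, 5754 and 5797 at 48 h, and 3531 and 4065 at 72 h. The arrays of 4 h overlapped those of normal liver, and all 10 arrays from 8 h on lay below both. Ghr averaged 3538 ± 1153 at 12 h, against 9191.8 ± 745 in normal liver (SD, n = 2 each). That is a log2 change of -1.40 (SE 0.24, adjusted p = 0.00341).

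The other called changes of Ghr were -1.07 at 8 h (adjusted p = 0.0164), -1.18 at 36 h (adjusted p = 0.0172) and -1.26 at 72 h (adjusted p = 0.0149). At 48 h the level was 62.8% of that in normal liver and was not called (-0.66, adjusted p = 0.23). In the order of the group means, 4 h did not differ from normal liver beyond its spread, 48 h stood alone between 4 h and the rest, and 8, 36, 72 and 12 h overlapped as neighbours.

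Ghr has a pair of further probe sets. The brighter of them was called lower at 8 h (-1.01, adjusted p = 0.0492), 36 h (-1.56, adjusted p = 0.0109) and 72 h (-1.49, adjusted p = 0.0176), and the dimmer at 12 h (-1.53, adjusted p = 0.0253). Their changes were below 0 at every time, as were those of the brightest one. Without replicate 2 of normal liver, the Ghr calls at 8, 36 and 72 h were lost (adjusted p = 0.11, 0.124 and 0.13), and they were also lost without either array of the time itself (0.0804 to 0.124) or without the 4 arrays of low 5′ to 3′ ratio (0.0944 to 0.143). With only the 4 arrays compared, the calls at 12, 36 and 72 h were lost (0.0812 to 0.0842).

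Stat5b encodes the transcription factor that carries the growth hormone signal to the nucleus. Its brightest probe set read 614 and 781 in normal liver, 594 and 550 at 4 h, 208 and 296 at 8 h, 260 and 502 at 12 h, 255 and 280 at 36 h, 359 and 346 at 48 h, and 396 and 465 at 72 h. Every array after PHx was below both arrays of normal liver. Stat5b was called at 8 h, with 36.1% of its mean in normal liver (log2 change -1.29, SE 0.28, adjusted p = 0.0122), and at 36 h, with 38.3% (-1.21, adjusted p = 0.0296).

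At the other times Stat5b had log2 changes of -0.26 to -0.88, none of them called. Its second probe set changed by -0.79 at 8 h (adjusted p = 0.116) and -0.96 at 36 h (adjusted p = 0.0933). The Stat5b calls were lost without replicate 2 of normal liver (adjusted p = 0.104 at 8 h and 0.207 at 36 h). They were also lost without replicate 1 of 8 h (0.11), and, at 36 h, without either array of 36 h (0.138 and 0.165), either array of 4 h (0.0515), the 4 arrays of low ratio (0.151) or with only the arrays compared (0.0876).

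**Figure D2:**
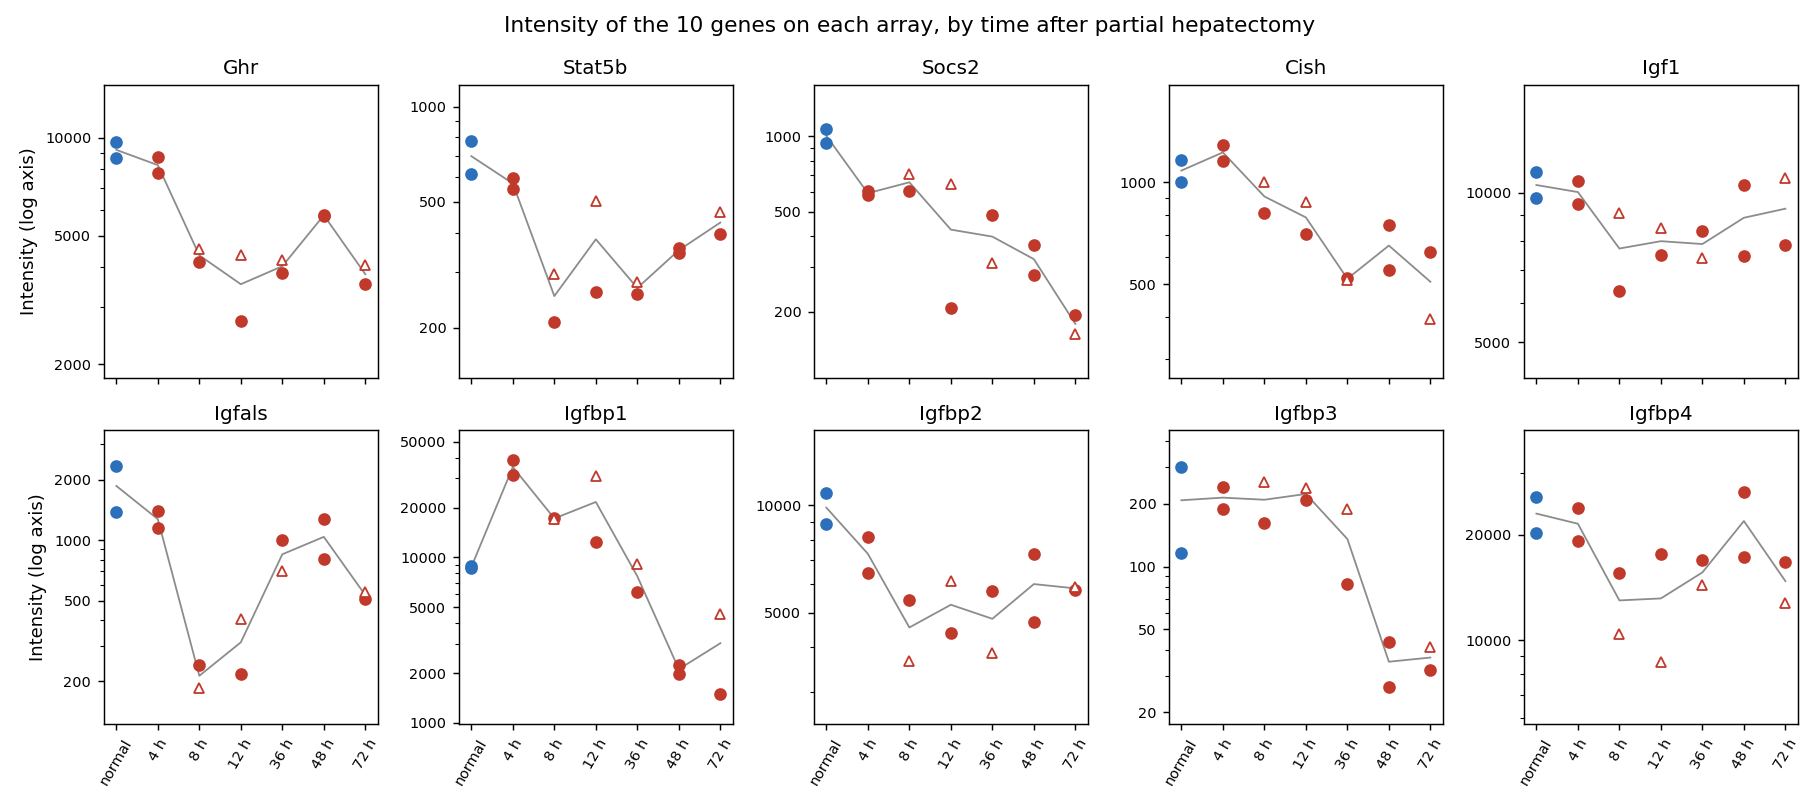
Intensity of the brightest probe set of each member on all 14 arrays, on a log axis, with blue for normal liver, red for the times after PHx, open triangles for the 4 arrays of low 5′ to 3′ control ratio and a grey line through the means of 2 arrays. Ghr lies below normal liver on all arrays from 8 h on, while the arrays of Igf1 overlap between neighbouring groups in the order of their means.

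Socs2 and Cish encode suppressors of cytokine signalling that are induced by STAT5 and feed back on the receptor. The brightest Socs2 probe set read 941 and 1071 in normal liver, 581 and 606 at 4 h, 606 and 707 at 8 h, 206 and 643 at 12 h, 485 and 312 at 36 h, 369 and 279 at 48 h, and 195 and 163 at 72 h. All 12 arrays after PHx lay below both arrays of normal liver, and both arrays of 72 h were the lowest of all. At 72 h Socs2 averaged 179 ± 22.6, against 1006 ± 92 in normal liver (SD, n = 2 each), a log2 change of -2.18 (SE 0.37, adjusted p = 0.00799).

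Socs2 was also called at 12 h (-1.31, adjusted p = 0.0409), where replicate 2 read 312% of replicate 1, and the call was kept in 13 of 26 alternatives. Without replicate 1 the change at 12 h was -0.60 (adjusted p = 0.197), and the call was lost too without either array of normal liver (0.0667 and 0.196), of 4 h (0.0608), of 8 h (0.0578) or of 72 h (0.0558). The call at 72 h was lost without replicate 2 of normal liver (0.0853) or either array of 72 h (0.0502 and 0.089). The second Socs2 probe set had changes of -1.42 at 12 h (adjusted p = 0.0543) and -1.74 at 72 h (adjusted p = 0.063).

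Cish, with a single probe set, read 1162 and 1004 in normal liver, 1293 and 1159 at 4 h, 814 and 1003 at 8 h, 704 and 872 at 12 h, 522 and 516 at 36 h, 748 and 553 at 48 h, and 621 and 396 at 72 h. The arrays of 4 h overlapped normal liver, and those of every later time were below it. No time was called against normal liver, with the nearest at 36 h (-0.98, SE 0.25, adjusted p = 0.0525) and 72 h (-1.04, adjusted p = 0.0559). The moderated F test over the 6 times called Cish (adjusted p = 0.0258).

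The Cish promoter is shown because it holds a pair of STAT5-type motifs. Promoter sequences are those of RefSeq on build GRCm38.p6, 250 bases before to 50 after a listed start. That start need not be the first base of the gene. They are available here for 9 of the 10 members, matched by gene symbol. The STAT5-type motif TTCNNNGAA, a palindrome that reads the same on both strands, is in 8.3% of all 32851 promoters of that length. Capitals mark TTCCTGGAA at bases 1 to 9 and TTCTTGGAA at bases 12 to 20, counted from 1 at the start base, in chr9:107296409-107296708 on the plus strand.
Cish promoter: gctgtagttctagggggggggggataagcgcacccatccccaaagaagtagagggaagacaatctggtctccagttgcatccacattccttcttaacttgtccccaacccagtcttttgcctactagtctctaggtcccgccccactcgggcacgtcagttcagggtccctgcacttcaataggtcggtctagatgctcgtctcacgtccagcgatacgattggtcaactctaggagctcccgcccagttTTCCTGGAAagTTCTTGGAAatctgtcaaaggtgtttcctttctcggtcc

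Igf1, the hormone gene itself, was not called at any time. Its brightest probe set read 9740 and 10985 in normal liver, 9513 and 10549 at 4 h, 6354 and 9091 at 8 h, 7490 and 8489 at 12 h, 8364 and 7403 at 36 h, 7448 and 10362 at 48 h, and 7863 and 10712 at 72 h. The arrays of 4, 48 and 72 h overlapped normal liver, and those of 8, 12 and 36 h were below it. The lowest group mean was 74.5% of normal liver, at 8 h, a log2 change of -0.44 with a 95% interval of -1.01 to 0.12 (adjusted p = 0.311). The F test gave an adjusted p of 0.686 for this probe set. Every group overlapped its neighbour in the order of the means. The 2 further Igf1 probe sets had no call either, and the brighter of them had larger changes, with -0.68 at 12 h (adjusted p = 0.103) and -0.94 at 72 h (51.0% of normal liver, adjusted p = 0.0882). The dimmer one had -0.51 at 8 and 12 h and 0.22 at 48 h. These arrays do not show that Igf1 was constant.

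Igfals encodes the acid-labile subunit, which holds IGF1 and IGFBP3 in the long-lived complex of the blood. Its single probe set read 1381 and 2341 in normal liver, 1392 and 1154 at 4 h, 240 and 184 at 8 h, 217 and 406 at 12 h, 999 and 704 at 36 h, 803 and 1276 at 48 h, and 512 and 555 at 72 h. The arrays of 8 and 12 h were the 4 lowest, those of 72 h came next, and all arrays from 8 h on were below normal liver. Igfals averaged 212 ± 39.6 at 8 h and 311 ± 133 at 12 h, against 1861 ± 679 in normal liver (SD, n = 2 each).

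The log2 change of Igfals was -2.79 at 8 h (SE 0.34, adjusted p = 0.000433) and -2.38 at 12 h (adjusted p = 0.00119), and both were called under every alternative tried. At 36 and 48 h the level was 45.8% and 55.9% of normal liver, without a call (-1.05 and -0.79). At 72 h Igfals was called again (-1.65, adjusted p = 0.0212). That call was lost without replicate 2 of normal liver (-1.29, adjusted p = 0.23), either array of 72 h (0.131 and 0.139), the 4 arrays of low ratio (0.208), or with only the arrays compared (0.0546).

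RefSeq lists 3 promoters for Igfals, and the second is shown because it holds a STAT5-type motif and a forkhead-type motif. Capitals mark TGTTTAC at bases -242 to -236 and TTCCTAGAA at bases -58 to -50, in chr17:24877981-24878280 on the plus strand. The forkhead-type motif TGTTTAC, searched on both strands, is in 3.65% of all promoters. The first Igfals promoter also has a STAT5-type motif, at bases -236 to -228.
Igfals promoter: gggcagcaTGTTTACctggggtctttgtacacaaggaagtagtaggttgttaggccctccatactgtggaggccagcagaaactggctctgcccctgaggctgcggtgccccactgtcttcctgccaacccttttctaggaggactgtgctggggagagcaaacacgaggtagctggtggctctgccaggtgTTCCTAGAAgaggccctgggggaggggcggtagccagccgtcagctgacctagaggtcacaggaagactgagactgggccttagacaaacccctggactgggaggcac

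Igfbp1 encodes the binding protein that liver makes in fasting and injury, and is known as an immediate-early gene of liver regeneration. Its single probe set read 8926 and 8583 in normal liver, 31306 and 38965 at 4 h, 17201 and 17158 at 8 h, 12326 and 30878 at 12 h, 6196 and 9172 at 36 h, 1989 and 2237 at 48 h, and 1487 and 4574 at 72 h. The arrays of 4, 8 and 12 h were all above normal liver, those of 36 h overlapped it, and those of 48 and 72 h were below it. Igfbp1 averaged 35135 ± 5416 at 4 h, against 8754 ± 242 in normal liver (SD, n = 2 each), a fold of 3.97 and a log2 change of 1.99 (SE 0.48). With an adjusted p of 0.0527 it was not called at 4 h, and it was called in 11 of 26 alternatives.

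At 48 h Igfbp1 averaged 2113 ± 175, which is 24.1% of normal liver, a log2 change of -2.02 (adjusted p = 0.0499). This call was lost without either array of normal liver (0.0974 and 0.259), of 4 h (0.0794), of 8 h (0.0791), of 36 h (0.0636) or of 48 h (0.114 and 0.284). At 72 h the change was -1.72 (adjusted p = 0.0948), and -2.15 (adjusted p = 0.00869) with the arrays of low ratio as a block. The group means ran in the order 4, 12 and 8 h, normal liver, and 36, 72 and 48 h. Neighbours overlapped at 12 and 8 h, at normal liver and 36 h, and at 72 and 48 h.

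The Igfbp1 promoter is shown because it holds an insulin response type of motif, TGTTTTG, which is in 6.28% of all promoters. It lies on the minus strand, so the capitals read CAAAACA, at bases -108 to -102 of chr11:7197537-7197836 on the plus strand. The windows of Igfbp2, Igfbp3, Igfbp4, Igf1, Ghr and Stat5b hold none of the 3 motifs searched. A match describes letters in the window and is not a measured binding site.
Igfbp1 promoter: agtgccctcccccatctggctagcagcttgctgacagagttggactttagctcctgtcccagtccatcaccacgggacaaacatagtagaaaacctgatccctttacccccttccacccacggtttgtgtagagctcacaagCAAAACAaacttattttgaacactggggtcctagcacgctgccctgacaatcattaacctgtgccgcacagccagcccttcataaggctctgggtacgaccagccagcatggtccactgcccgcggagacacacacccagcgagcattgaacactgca

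Igfbp3 lies next to Igfbp1 on chromosome 11, with 0 genes between them in RefSeq, and encodes the main IGF carrier of blood. Its single probe set was dim and read 301 and 116 in normal liver, 189 and 240 at 4 h, 163 and 256 at 8 h, 209 and 238 at 12 h, 82.8 and 189 at 36 h, 26.5 and 43.5 at 48 h, and 32 and 41.3 at 72 h. All arrays up to 36 h were above background, and none of 48 or 72 h was. Igfbp3 was therefore at least 2.25-fold lower at 48 h and at least 2.52-fold lower at 72 h than in normal liver, with adjusted p = 0.0605 and 0.0625. These bounds set the mean of normal liver against the background of the dim arrays. Without replicate 1 of normal liver they were 1.40-fold and 1.56-fold, and without replicate 2 they were 3.63-fold and 4.05-fold. The F test over the 6 times called Igfbp3 (adjusted p = 0.015).

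Igfbp2 encodes a binding protein made in quantity by fasting liver. Its single probe set read 8885 and 10803 in normal liver, 6454 and 8164 at 4 h, 5420 and 3666 at 8 h, 4375 and 6147 at 12 h, 5763 and 3846 at 36 h, 4708 and 7316 at 48 h, and 5780 and 5914 at 72 h. Every array after PHx was below both arrays of normal liver, and the 6 times overlapped with their neighbours. At 8 h the level was 46.1% of normal liver and was called (log2 change -1.13, SE 0.31, adjusted p = 0.0393). The call was kept in 12 of 26 alternatives. Among others it was lost without replicate 1 or 2 of normal liver (0.0536 and 0.231), of 8 h (0.0632 and 0.272), of 4 h (0.0556) or of 72 h (0.057), and with the arrays of low ratio as a block (0.0735).

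Igfbp4 encodes a binding protein that is cleaved by the protease pappalysin. The brightest of its 6 probe sets read 20273 and 25639 in normal liver, 19187 and 23763 at 4 h, 15576 and 10391 at 8 h, 17632 and 8677 at 12 h, 16881 and 14327 at 36 h, 17303 and 26421 at 48 h, and 16670 and 12805 at 72 h. The arrays of 8, 12, 36 and 72 h were below normal liver, and those of 4 and 48 h overlapped it. No time was called, with -0.84 at 8 h (adjusted p = 0.158) and -0.88 at 12 h (adjusted p = 0.121). The 5 further probe sets had no call at any time.

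Each of the 4 times at which the brightest Igfbp4 probe set lay below normal liver has an array of low 5′ to 3′ ratio. For that probe set, the other array of each of these times also lay below both arrays of normal liver. This did not hold for the 2 dimmest probe sets at 36 h. Their other array read 11472.5 and 4468.9, against 10952.9 and 4027.5 on replicate 1 of normal liver. On the arrays of low ratio the brightest Igfbp4 probe set was at 49.2% to 84.9% of the other array of the same time, and the dimmest at 18.9% to 41.0%. Of the 6 Igfbp4 probe sets, 4 were lower on all 4 of these arrays and 2 on 3 of them, with 102% and 101% at 72 h. Of all probe sets tested, 12.0% were lower on all 4 of these arrays than on their partners. The Ghr probe sets split on these arrays, since the brightest was at 109% to 160% of its partner and both others were lower on all 4 arrays. With these arrays as a block, the Igfbp4 changes were -0.56 at 8 h (adjusted p = 0.268) and -0.60 at 12 h (adjusted p = 0.212). The part of the low ratio in the Igfbp4 values was not tested beyond this block.

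**Figure D3:**
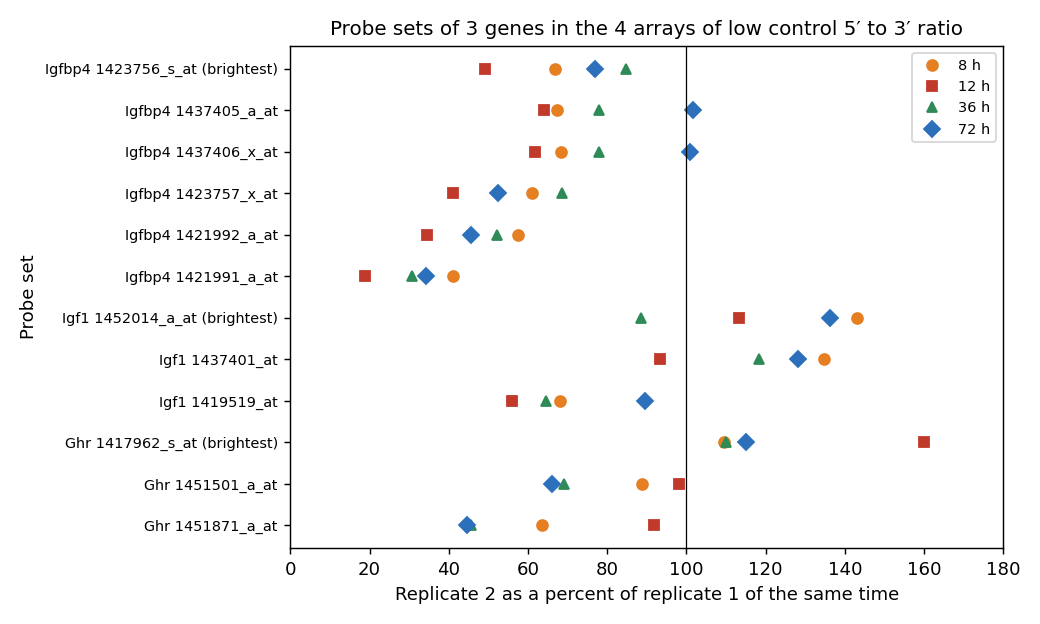
Intensity on replicate 2 as a percent of replicate 1 of the same time (8, 12, 36 and 72 h), for each probe set of Igfbp4, Igf1 and Ghr, where the vertical line marks 100%. The lowest Igfbp4 probe set lies at 18.9% to 41.0% and the brightest of Ghr at 109% to 160%.

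The late times (36, 48 and 72 h) were set against the early times (4, 8 and 12 h), a comparison that holds no array of normal liver. It called 5 of 10 members, where 15.8% of all probe sets were called in either direction. Igfbp1 was lower late, with a log2 change of -2.69 (SE 0.28, adjusted p = 4.3e-05), and so was Igfbp3, with -1.22 (SE 0.21, adjusted p = 0.00172). All 6 late arrays of Igfbp1 lay below all 6 early arrays, and Igfbp3 on 1 late array, of 36 h, overlapped the early arrays. Of the 6 late arrays of Igfbp3, 4 were not above background.

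Socs2 was also lower late, with a log2 change of -0.78 (SE 0.22, adjusted p = 0.0295), and so was Cish, with -0.74 (SE 0.15, adjusted p = 0.00495). Igfals was the member called higher late, with 0.72 (SE 0.19, adjusted p = 0.0251). This did not hold against 4 h, where Igfals averaged 1273, above its means of 852 at 36 h, 1040 at 48 h and 534 at 72 h. Late and early arrays overlapped for Socs2, Cish and Igfals. Ghr (-0.16), Stat5b (-0.11), Igf1 (0.02), Igfbp2 (-0.02) and Igfbp4 (0.18) were not called. Without the 4 arrays of low ratio the calls of Cish (-0.54, adjusted p = 0.165), Socs2 (-0.38, adjusted p = 0.324) and Igfals (0.86, adjusted p = 0.104) were lost. Single arrays also ended the Socs2 call (8 arrays, adjusted p = 0.0528 to 0.0815) and the Igfals call (7 arrays, 0.0505 to 0.0774).

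**Figure D4:**
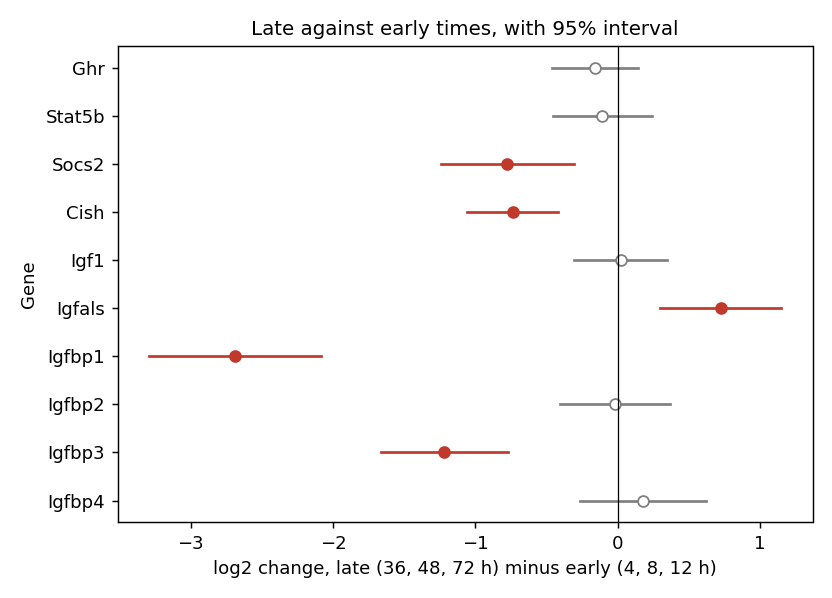
Log2 change of each member between the late times (36, 48 and 72 h) and the early times (4, 8 and 12 h), with 95% intervals, where filled red points have an adjusted p under 0.05. Igfbp1 lies farthest below 0, at -2.69, and Igfals is the called member above 0, at 0.72.

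Other genes of the pathway were taken as lists, each chosen by function. Of 18 tested genes of growth hormone and JAK-STAT signalling, the number called higher was 2 at 4 h, then 3 (8 h), 4 (12 h) and 1 (36 h), where 1.6%, 4.87%, 5.97% and 2.28% of all probe sets were called higher. In that list 0 were called lower at these times, with 1 or 2 lower at an unadjusted p under 0.05. Of all probe sets, 4.72% (8 h), 6.21% (12 h) and 1.88% (36 h) were called lower. Socs3, a feedback inhibitor induced by STAT3, rose at 4 h, with a log2 change of 3.54 (SE 0.33, adjusted p = 0.000219), when neither Socs2 nor Cish was called. Ptpn2, a phosphatase that acts on JAK and STAT proteins, rose by 2.18 at 12 h (adjusted p = 0.0218), and Stat3 by 1.46 (adjusted p = 0.0115). The list's median change was 0.48 at 12 h, where that of all probe sets was 0.12. The arrays of 12 h differed, since the genes of the list on the array summed to 13247 on the lower and 22253 on the higher of them. In normal liver they summed to 8647 to 9065. The correlation between replicates was also lowest at 12 h, at 0.910. Jak2 read 244 and 456 at 12 h, against 320 and 289 in normal liver, and was not called.

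Of 17 tested genes of the IGF and insulin receptor pathway, 1 was called at 8 h, where 9.59% of all probe sets were called. At the other times 0 were called by limma, with 1 to 2 of them at an unadjusted p under 0.05. The called gene was Irs1, the docking protein of the insulin and IGF1 receptors. It read 840 and 1027 in normal liver, 343 and 394 at 4 h, 219 and 361 at 8 h, 315 and 663 at 12 h, 789 and 899 at 36 h, 928 and 913 at 48 h, and 977 and 970 at 72 h. Irs1 changed by -1.54 at 8 h (SE 0.30, adjusted p = 0.00831) and was higher late than early by 1.20 (adjusted p = 0.000665). Igf1r and Igf2 were too dim to be tested.

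Of 9 tested IGFBP proteases and inhibitors of proteases, 2 were called higher and 1 lower at 8 h, where 4.87% and 4.72% of all probe sets were. Adamts1, a metalloprotease gene, rose by 1.56 at 4 h (adjusted p = 0.0203), and Timp1, an inhibitor of matrix metalloproteases, was called higher at all 6 times by 1.25 to 1.91, with 1 of 2 arrays of normal liver above background. Klkb1, which encodes plasma prekallikrein, fell by 2.44 at 8 h (adjusted p = 0.00218). Of 13 tested genes that depend on growth hormone or are male-biased in mouse liver, 3 were called lower at 8 h and 6 at 72 h. The shares of all probe sets were 4.72% and 0.869%. In this list 0 were called higher at any of the 6 times, also at an unadjusted p under 0.05. From 4 to 36 h, 1.6% to 5.97% of all probe sets were called higher. Hsd3b5, a steroid dehydrogenase gene of male liver, read 15.2 and 10.9 at 8 h, not above background, against 3053 and 4494 in normal liver (adjusted p = 1.53e-05).

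Of 13 tested genes that respond to FOXO factors, insulin or fasting, as Igfbp1 does, 4 were called higher and 1 lower at 4 h, where 2.42% of all probe sets were called. Pdk4, a brake on glucose oxidation, rose by 4.91 at 4 h (SE 0.57, adjusted p = 0.000688). G6pc, which encodes the glucose-6-phosphatase that frees glucose from hepatocytes, fell by 3.22 at 8 h (adjusted p = 0.00117), a time at which Igfbp1 was at 196% of normal liver. Late against early, 1 of these genes was called higher and 5 lower, where 15.8% of all probe sets were called in either direction.

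The time courses most like those of the members were found by the root mean square difference of the log2 changes at 6 times, among 8443 other tested genes. Nearest to Igfbp1 were Pim3 (0.45), Lpin1 (0.50) and Plk3 (0.51), all with values of 1.64 to 2.83 at 4 h and -0.85 to -1.50 at 48 h. Nearest to Igfals were Klkb1 (0.35), Slc29a1 (0.38) and Hsd17b6 (0.38). Nearest to Ghr were Serpina6 (0.14), the carrier of corticosteroids, Sdc2 (0.16) and Nudt7 (0.16). Nearest to Igf1 were Ndufb10 (0.0623), 3830406C13Rik (0.0697) and Stab2 (0.0764). The F test called none of them, which was likely from the start, since they were picked for changes close to those of Igf1. Of the genes nearest to Ghr, which was called, Nudt7 was called and Serpina6 and Sdc2 were not. Among the members themselves, Igfbp2 and Stat5b were closest (0.14) and Igfbp1 and Igfals farthest apart (2.42).

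**Figure D5:**
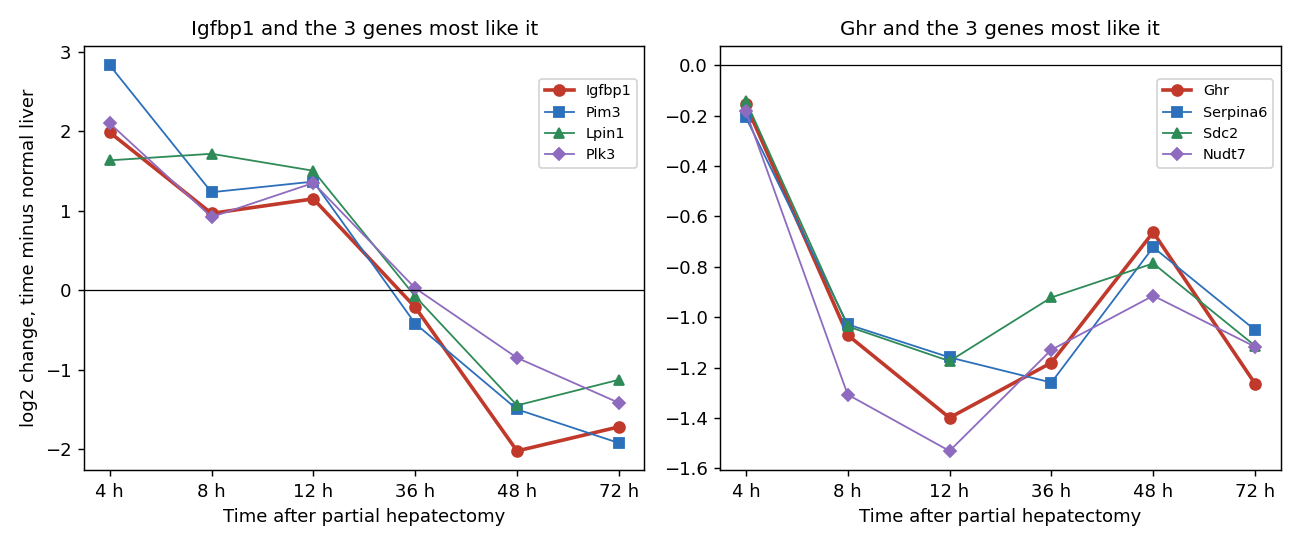
Log2 change against normal liver at 6 times after PHx for Igfbp1 (left) and Ghr (right), each with the 3 genes nearest to it. The genes beside Igfbp1 lie above 0 at 4 to 12 h and below 0 at 48 and 72 h, and those beside Ghr lie at -0.92 to -1.53 from 8 to 36 h.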

How the data were processed

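The authors deposited 1 table of intensity values on a linear scale, 1 value per probe set and array, for 14 arrays of biotin-labelled mouse liver RNA. The values came with no program named (not given in the sources used here). Per the series' design text, the authors selected genes in GeneSpring 7.2 at a 2-fold difference from normal liver.

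The deposited scaling was kept. The table has 22690 probe sets, of which 64 controls were left out. Names came from the array annotation. Probe sets with a mean intensity of at least 128.8, the 40th percentile, were tested after adding 56.6, the 25th percentile, and taking log2. In limma 3.58.1 (R 4.3.3), 1 linear model with a term for each of 7 groups took in all arrays, with 7 residual and 5.07 prior degrees of freedom. P-values were adjusted by Benjamini-Hochberg over all 13576 probe sets within each contrast and for the moderated F test. Precision is limited by the 2 arrays of each group.

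The members, gene lists, tests, motifs and alternatives were chosen with earlier results of these data known. All members are named, with at most 4 called genes of each other list (largest changes first) and the 3 most similar genes of Igfbp1, Igfals, Ghr and Igf1. Exceptions chosen after their values were seen are Jak2, Igf1r, Igf2 and the reduced selection among called list genes. Alternatives were quantile normalization, other pseudocounts and filters, an intensity trend, array weights, and replicate and processing group blocks. Others were the fit without that group, the average over the probe sets of a gene, only the arrays compared, and each array left out. Processing group here means only the 4 arrays of a control 5′ to 3′ ratio under 0.2. The labels name no processing batch.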

Additional observations from a re-analysis of the deposited data

Results flagged for a closer look

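For 5 members the late times (36, 48 and 72 h) differed from the early times (4, 8 and 12 h) by a test of that difference. It called 15.8% of all probe sets in either direction. The log2 changes were -2.69 for Igfbp1, -1.22 for Igfbp3, 0.72 for Igfals, -0.78 for Socs2 and -0.74 for Cish. The calls of Igfbp1 and Igfbp3 were kept wherever they were tested. Those of Socs2, Igfals and Cish were kept in 15, 18 and 25 of 26 alternatives. No single array could be checked for standing apart within its group, since each group has 2 arrays.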

How the results depend on the processing

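Across 70 member values and 26 alternatives, 1661 of 1813 recomputed values kept their side of the threshold, 93 lost a call, 59 gained one and 0 reversed past the threshold. The 1661 include 36 sign changes, which fell on 13 uncalled values of at most 0.43 in log2 size. Of 18 called values, 4 passed wherever they were tested: Igfals at 8 and 12 h, and Igfbp1 and Igfbp3 late against early, with Igfbp3 too dim for the filter at the 60th percentile. Each of these genes has 1 probe set, so the average over probe sets left their values unchanged. Leaving out an array of normal liver likewise cannot move a late against early change, only its p-value. The members called (0, 4, 3, 2, 1 and 3 at 4, 8, 12, 36, 48 and 72 h, 5 late against early, 7 by the F test) changed as follows, and the cause was not tested. Processing group again means the 4 arrays of low control ratio, which no label names as a batch. At 4 h, 1 member was called with the stricter filter, the intensity trend, only the arrays compared, the processing group as a block, 4 times the pseudocount, or without the processing group. At 48 h, 0 were called with array weights or no filter, and 2 with the stricter filter, the intensity trend, the processing group as a block, 4 times the pseudocount, quantile normalization or without the processing group. At 36 h the count was 4 with the intensity trend, 5 with 4 times the pseudocount and 0 with only the arrays compared or without the processing group. At 72 h it was 5 with the processing group as a block or quantile normalization and 1 with only the arrays compared, a setting that gave 1 at 12 h. Without the processing group it was 2 at 8 h, 2 late against early and 3 by the F test, on 4 fewer arrays. With the replicate block, 1 member was called at 4 h. Of 21 correlations between groups of same-numbered deviations, 9 were over 0.1 (range -0.19 to 0.53). The labels give same-numbered arrays nothing in common but the number, and the 4 arrays of low ratio are all replicate 2. What same-numbered arrays share was not tested. Leaving out single arrays gave 0 to 1 calls at 4 h, 1 to 4 at 8 h, 2 to 4 at 12 h, 0 to 4 at 36 h, 0 to 2 at 48 h, 0 to 5 at 72 h, 3 to 5 late against early and 4 to 7 by the F test. Where that left 1 array in a group, it was assumed to vary like the others. Signal over background limits Igfbp3, which was above it on 10 of 14 arrays.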
